A study of Homo sapiens with 6 samples.

Results

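The genes described here are 9 genes of the NRF2 antioxidant pathway, chosen by name: NFE2L2, KEAP1, NQO1, HMOX1, GCLC, GCLM, TXNRD1, SRXN1 and SLC7A11. All 9 were found by Entrez identifier among the 12703 genes of the count table. The cells were PC3, an established human prostate cancer line. The study compared 3 PC3 lines stably transduced with lentivirus carrying GCNT1, a Golgi glycosyltransferase that adds the core 2 branch to O-linked sugars, with 3 lines that received negative-control lentivirus (labelled as a Lenti-ORF control). The labels call the 3 lines of each group biological replicates, and the sources used here do not say whether a line was a clone or a pool of transduced cells. Its question was which transcripts differ between PC3 cells with and without added GCNT1.

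NRF2, the protein encoded by NFE2L2, is a transcription factor that switches on antioxidant and detoxifying genes. In resting cells KEAP1 binds NRF2 and, together with the CUL3 ubiquitin ligase, marks it for destruction. When reactive molecules modify KEAP1, NRF2 accumulates, pairs with a small MAF protein and binds antioxidant response elements in its target genes. Since this control acts on the protein, the mRNA of NFE2L2 does not report NRF2 activity by itself, and its targets are read instead.

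Total counts were 12125672 to 12755888 in the control libraries and 11392213 to 13825704 in the GCNT1 overexpressing libraries, and 3 counts in a library stood for 0.217 to 0.263 CPM, read counts scaled to library size. For GCNT1 itself, controls had 9, 13 and 8 reads and the overexpressing libraries 13, 16 and 35, which edgeR put at a log2 difference of 0.98 ± 0.37 (SE; adjusted p = 0.0362), and both groups held a library with 13 reads. In CPM the highest control was at 1.04 and the lowest overexpressing library at 1.12. The paper checked PC3 cells overexpressing GCNT1 by real-time PCR, ELISA and immunocytochemistry. Of 8 epithelial markers 7 were counted, and 3 of the 7 were called: KRT7 rose from 26.0 ± 3.27 to 81.7 ± 14.7 CPM, while KRT19 fell from 369 ± 17.8 to 230 ± 15.9 CPM and CDH1 from 3.59 ± 0.796 to 1.10 ± 0.168 CPM (SD, n = 3). KRT8 was at 222 ± 7.77 CPM in controls and 202 ± 19.8 CPM with overexpression (SD, n = 3). Of 8 luminal prostate markers 4 were counted and 2 were called, both lower. The luminal prostate markers KLK2, KLK3 and FOLH1 were not among the counted genes, and HOXB13 was at 816 ± 35.8 CPM in controls and 679 ± 15.9 CPM with overexpression. Of 12 markers of blood, endothelium, fibroblasts and muscle, 4 were counted, and they summed to 101 to 115 CPM in controls and 95.1 to 107 CPM with overexpression, mostly CD68. Of the 4, PECAM1, of endothelium, rose from 1.77 ± 0.292 to 4.43 ± 0.603 CPM and COL1A1, of fibroblasts, fell from 14.6 ± 1.03 to 8.55 ± 0.317 CPM (adjusted p = 8.36e-05 and 2.32e-05, edgeR). The part of all these markers in the results was not tested.

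The core letters of the antioxidant response element, TGACNNNGC, were searched on both strands in RefSeq promoter windows (GRCh38.p14, 250 bases before and 50 after a gene's start). Windows were held for 7 of the 9 genes, 10 windows in all, and HMOX1 and SLC7A11 had none in the table. The core was found in 4 windows of 3 genes, KEAP1, GCLM and TXNRD1, against 13.3% of 35116 windows of all genes. These 4 stretches are shown because they held the core, and their genes moved in both directions. Each runs 5′ to 3′ on the gene's strand from 120 bases before the start to 10 bases after it, with the core in capitals on whichever strand it was read. The 4 stretches are, in order, chr19:10502762-10502891 (minus strand), chr1:93909421-93909550 (minus strand), chr12:104215659-104215788 (plus strand) and chr12:104286912-104287041 (plus strand), the first and the last at downstream starts of KEAP1 and TXNRD1, each of which has 2 windows.
KEAP1 downstream start: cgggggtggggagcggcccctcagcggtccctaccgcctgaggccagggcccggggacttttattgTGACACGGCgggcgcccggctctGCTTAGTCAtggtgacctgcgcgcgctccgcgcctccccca
GCLM: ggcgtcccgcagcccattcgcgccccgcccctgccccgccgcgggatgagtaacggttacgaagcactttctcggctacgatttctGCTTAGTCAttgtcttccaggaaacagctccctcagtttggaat
TXNRD1 first start: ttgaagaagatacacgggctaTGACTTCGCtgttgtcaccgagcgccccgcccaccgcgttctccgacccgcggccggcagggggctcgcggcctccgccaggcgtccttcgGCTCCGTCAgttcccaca
TXNRD1 downstream start: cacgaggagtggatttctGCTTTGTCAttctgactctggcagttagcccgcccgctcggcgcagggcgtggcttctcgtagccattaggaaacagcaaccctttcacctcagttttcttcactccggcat
KEAP1 and GCLM carried the same 9 letters, TGACTAAGC when read on the opposite strand, with their first base at -31 from the downstream start of KEAP1 and at -34 from the start of GCLM. The same KEAP1 window held another core, TGACACGGC, at -54, and the first start of TXNRD1 held TGACTTCGC at -99 and TGACGGAGC at -8. Its downstream start held TGACAAAGC at -102. The core can overlap the AP-1 site TGANTCA, which none of the 10 windows held (7.71% of all windows did), and none held the ATF4-type element TGATGNAA (3.62% of all windows). A match is a description of these letters and does not show binding. Bases outside the windows were not searched, so a window without the core does not show that a gene lacks the element.

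None of the 9 genes was called, where a call needed an adjusted p under 0.05 together with a log2 change of at least 0.58 in size, as the study set it, and 19.3% of all genes were called. With edgeR's quasi-likelihood test and Benjamini-Hochberg adjustment over all 12703 genes, 7 of the 9 passed the adjusted p alone. NFE2L2, KEAP1, TXNRD1 and SRXN1 rose in GCNT1 overexpressing cells, and NQO1, HMOX1 and GCLM fell. By this rule 28.3% of all genes were higher and 29.3% lower. The median absolute log2 fold change of the 9 genes was 0.28, against 0.26 over all genes, so the 9 genes changed about as much as genes did at large. In bulk RNA, fewer cells with a transcript and less of it per cell cannot be told apart. The groups did not overlap for the same 7 genes, as for 62.5% of all genes. The signed median was -0.09 for the 9 genes and 0.00095 for all genes.

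**Figure D1:**
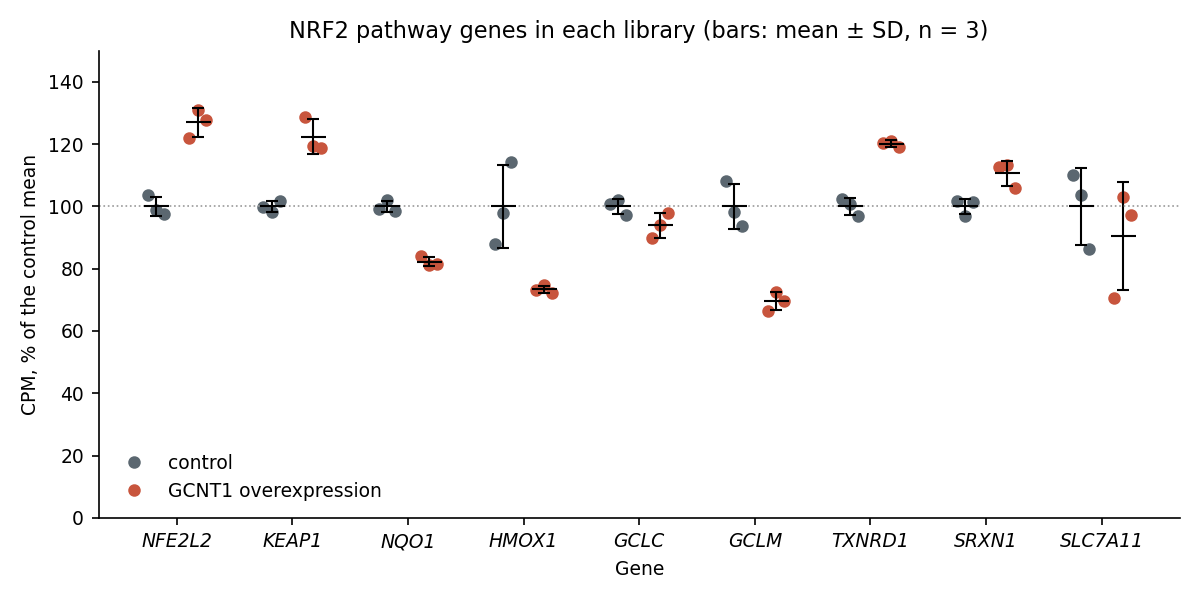
Level of each gene in every library, as a percentage of the gene's control mean (vertical axis, CPM normalized by TMM), with 3 control libraries in grey and 3 GCNT1 overexpressing libraries in red; bars show the mean ± SD. The red points lie above all grey points for NFE2L2, KEAP1, TXNRD1 and SRXN1, and below them for NQO1, HMOX1 and GCLM, while the groups overlap for GCLC and SLC7A11.

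Both the transcription factor and its inhibitor had higher mRNA. NFE2L2 (Entrez 4780, chromosome 2 of hg38 from 177230303 to 177264727) had 90.6, 86.5 and 85.4 CPM in controls and 107, 115 and 112 CPM with overexpression. Every overexpressing library was above every control. This was a rise of 27.0%, or 0.34 ± 0.05 on the log2 scale (SE; adjusted p = 0.000114, edgeR). Exons of HNRNPA3 and AGPS overlap NFE2L2 on the opposite strand in GENCODE 44, and their log2 fold changes were -0.08 and -0.06 (adjusted p = 0.131 and 0.470, edgeR). A long non-coding RNA of the same strand also shares exons with NFE2L2 and was not among the counted genes.

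KEAP1 (Entrez 9817, chromosome 19 from 10486125 to 10503356), the adaptor that delivers NRF2 to its ubiquitin ligase, had 137, 135 and 139 CPM in controls and 176, 164 and 163 CPM with overexpression. The lowest overexpressing library exceeded the highest control by more than the spread among controls. KEAP1 thus rose by 22.3%, a log2 difference of 0.29 ± 0.05 (SE; adjusted p = 0.000290, edgeR). Within a library, the ratio of NFE2L2 to KEAP1 counts was 0.639 ± 0.0246 in controls and 0.665 ± 0.0516 with overexpression (SD, n = 3 each), and the groups overlapped (two-sided exact permutation p = 0.600). This ratio does not depend on how libraries are scaled.

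Of the targets, TXNRD1 and SRXN1 were higher. TXNRD1 (Entrez 7296, chromosome 12 from 104215779 to 104350307), cytosolic thioredoxin reductase, which keeps thioredoxin reduced with electrons from NADPH, had the highest level of the 9. It was at 1627, 1603 and 1544 CPM in controls and 1915, 1927 and 1895 CPM with overexpression. The overexpressing libraries lay close together, above all controls. The rise was 20.2%, and on the log2 scale 0.27 ± 0.04 (SE; adjusted p = 7.56e-05, edgeR). EID3 lies in the span of TXNRD1 on the same strand without sharing exons, and was not among the counted genes.

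SRXN1 (Entrez 140809, chromosome 20 from 646615 to 653200), sulfiredoxin, which repairs over-oxidized peroxiredoxins, had 120, 115 and 120 CPM in controls and 133, 134 and 125 CPM with overexpression. The groups were apart, but the gap between them was the narrowest of the 4 genes that rose. SRXN1 rose by 10.6%, on the log2 scale 0.15 ± 0.05 (SE; adjusted p = 0.0275, edgeR). The adjusted p exceeded 0.05 with DESeq2 (0.0550) and in 2 of the 6 fits that left out a library: without control replicate 2 the log2 fold change was 0.12 (adjusted p = 0.119, edgeR) and without GCNT1 overexpression replicate 2 it was 0.13 (adjusted p = 0.0784, edgeR). An annotated protein-coding gene model of the same strand shares exons with SRXN1, so its counts are uncertain to that extent.

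NQO1 and HMOX1, 2 targets widely used as readouts of NRF2, were lower. NQO1 (Entrez 1728, chromosome 16 from 69709401 to 69726560), which reduces quinones by 2 electrons at a time, had 242, 249 and 240 CPM in controls and 205, 198 and 199 CPM with overexpression. Every overexpressing library lay below every control, at 81.3% to 84.0% of the control mean. edgeR put the difference at -0.28 ± 0.04 on the log2 scale (SE; adjusted p = 0.000122). An unnamed antisense transcript overlaps an exon of NQO1, and whether counting used strand is not given in the sources used here.

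HMOX1 (Entrez 3162, chromosome 22 from 35381096 to 35394207), the inducible heme oxygenase that breaks heme down to biliverdin, iron and carbon monoxide, had the lowest level in CPM. It had 25.7, 28.6 and 33.4 CPM in controls, a wide spread, and 21.3, 21.8 and 21.1 CPM with overexpression, a narrow one. The highest overexpressing library was still below the lowest control. On the log2 scale the difference was -0.44 ± 0.09 (SE; adjusted p = 0.00125, edgeR), and its 95% interval of -0.65 to -0.24 reached past the fold change threshold. HMOX2, the constitutive enzyme of the same reaction, was not among the counted genes.

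Of the 3 glutathione genes, GCLM passed the adjusted p, and GCLC and SLC7A11 did not. GCLM (Entrez 2730, chromosome 1 from 93885199 to 93909430), the modifier subunit of glutamate-cysteine ligase, the enzyme that makes the first and limiting step of glutathione synthesis, had a log2 fold change furthest from 0 among the 9 genes with all libraries, though HMOX1 (-0.52) passed it (-0.45) without control replicate 1. It had 55.5, 50.5 and 48.1 CPM in controls and 34.2, 37.3 and 35.9 CPM with overexpression. The groups were well apart, the overexpressing libraries at 66.6% to 72.5% of the control mean. GCLM fell by 0.52 on the log2 scale, with a 95% interval of -0.67 to -0.37 (adjusted p = 3.41e-05, edgeR).

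GCLC (Entrez 2729, chromosome 6 from 53497341 to 53545101), the catalytic subunit of the same enzyme, had 81.5, 82.6 and 78.7 CPM in controls and 72.8, 76.1 and 79.2 CPM with overexpression. The highest overexpressing library lay among the controls. The log2 fold change was -0.09 with a 95% interval of -0.21 to 0.03 (adjusted p = 0.191, edgeR). The ratio of GCLC to GCLM counts was 1.47, 1.63 and 1.63 in controls and 2.13, 2.04 and 2.21 with overexpression, and the groups did not overlap. The two-sided exact permutation test gave p = 0.1, the smallest that 3 libraries against 3 allow, and 0.133 after Benjamini-Hochberg adjustment over the 4 ratios compared. GCLC-AS1 overlaps GCLC on the opposite strand, and another long non-coding RNA shares exons with it on the same strand.

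SLC7A11 (Entrez 23657, chromosome 4 from 138164097 to 138242349) imports cystine, the source of cysteine for glutathione, in exchange for glutamate. It had 144, 135 and 113 CPM in controls and 92.5, 135 and 127 CPM with overexpression. Replicate 1 of the overexpressing lines stood lowest of all, and the other two lay within the control range. The log2 fold change was -0.14 with a 95% interval of -0.40 to 0.11 (adjusted p = 0.317, edgeR). Without GCNT1 overexpression replicate 1 it was 0.0026 (adjusted p = 0.980, edgeR). SLC7A11 therefore had the widest 95% interval of the 9 genes, and a change of up to 0.40 on the log2 scale downwards lay within it. SLC7A11-AS1 overlaps it on the opposite strand.

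SLC3A2, the heavy chain that carries SLC7A11 to the cell surface and also serves SLC7A5, rose from 195 ± 12.2 to 269 ± 13.6 CPM (log2 fold change 0.46, adjusted p = 1.45e-05, edgeR). The ratio of SLC7A11 to SLC3A2 counts was 0.781, 0.700 and 0.542 in controls and 0.330, 0.531 and 0.467 with overexpression. The groups were separated by a narrow gap, between 0.531 and 0.542 (two-sided exact permutation p = 0.1, the smallest possible; adjusted over the 4 ratios, 0.133).

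**Figure D2:**
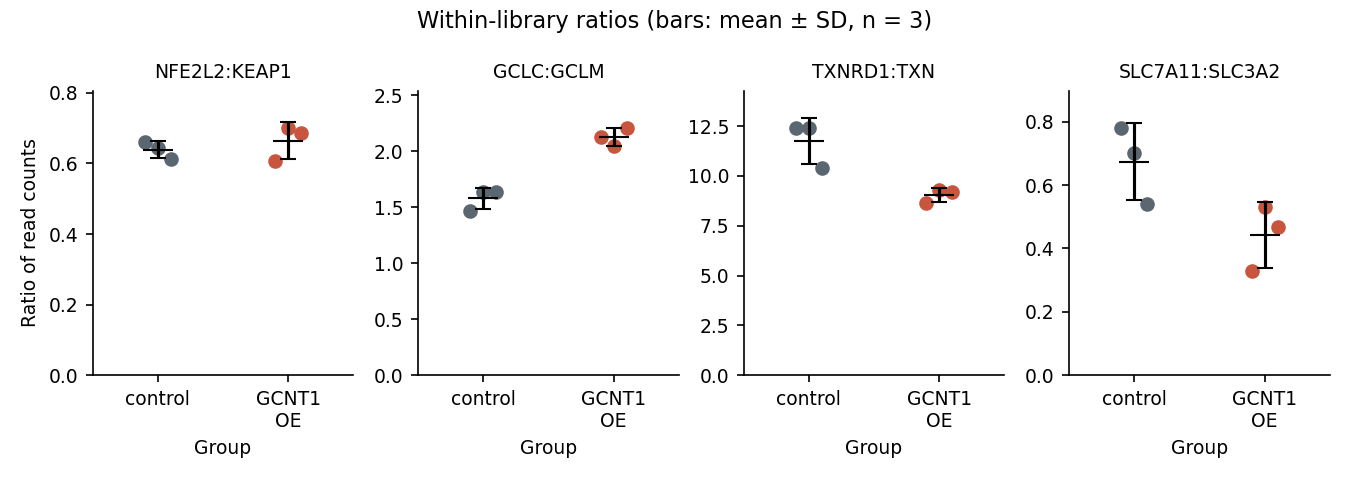
Ratios of the read counts of 2 genes within each library (vertical axes from 0), 1 point per library, with the mean ± SD of 3 libraries in each group. GCLC:GCLM was higher and TXNRD1:TXN and SLC7A11:SLC3A2 were lower in all 3 overexpressing libraries than in all 3 controls, while NFE2L2:KEAP1 overlapped.

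Each gene was also set beside the median log2 fold change of its 50 nearest analysed genes. That median was -0.09 around NFE2L2, -0.03 around KEAP1 and -0.16 around SRXN1, which all rose, and 0.22 around NQO1, which fell. Around TXNRD1 it was 0.16, and TXNRD1 exceeded it by 0.10. It was -0.22 around both HMOX1 and GCLM, which lay a further 0.22 and 0.30 below it (differences of -0.22 and -0.30). Around GCLC it was -0.14 and around SLC7A11 0.17. The part of these regions in the changes was not tested.

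**Figure D3:**
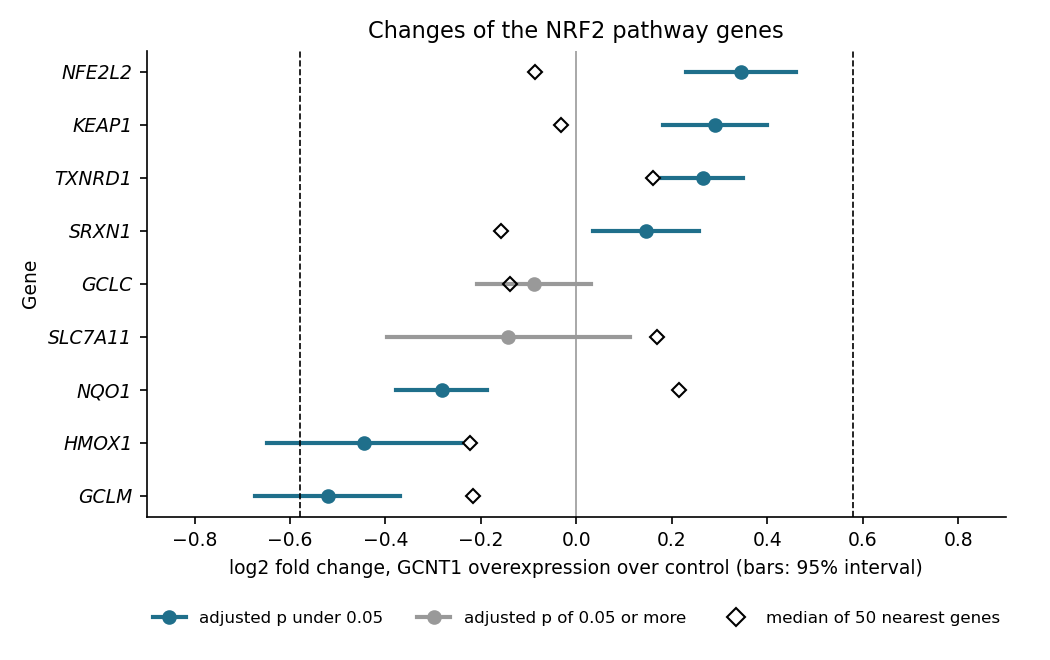
Log2 fold change of each gene with its 95% interval (horizontal axis, GCNT1 overexpression over control, edgeR), ordered by size; dashed lines mark the threshold of 0.58 in each direction, and diamonds the median of the 50 nearest analysed genes. All 9 estimates lie between -0.52 and 0.34, inside the dashed lines, and the intervals of GCLC and SLC7A11 include 0.

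Levels of different genes were compared as CPM per kb of the union of annotated exons. In controls TXNRD1 was at 237 ± 6.40 CPM per kb (SD, n = 3), NQO1 at 82.0 ± 1.54, SRXN1 at 46.7 ± 1.19 and KEAP1 at 38.3 ± 0.682, and the ranges of these 4 did not overlap. SLC7A11 at 13.6 ± 1.66 and HMOX1 at 12.7 ± 1.70 CPM per kb overlapped, as did GCLM at 9.47 ± 0.697 and GCLC at 9.39 ± 0.234. NFE2L2 came last at 5.84 ± 0.182 CPM per kb, but its annotated exons add up to 14975 bases against 2446 in its canonical transcript. Per kb of the canonical transcript NFE2L2 was at 35.8 ± 1.11 CPM, between SRXN1 and GCLC, and KEAP1 at 53.4 ± 0.950 stood above SRXN1. TXNRD1 and NQO1 held the first and second place by either length in both groups. With overexpression GCLM had the lowest level by either length, 6.60 ± 0.282 CPM per kb of exon.

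**Figure D4:**
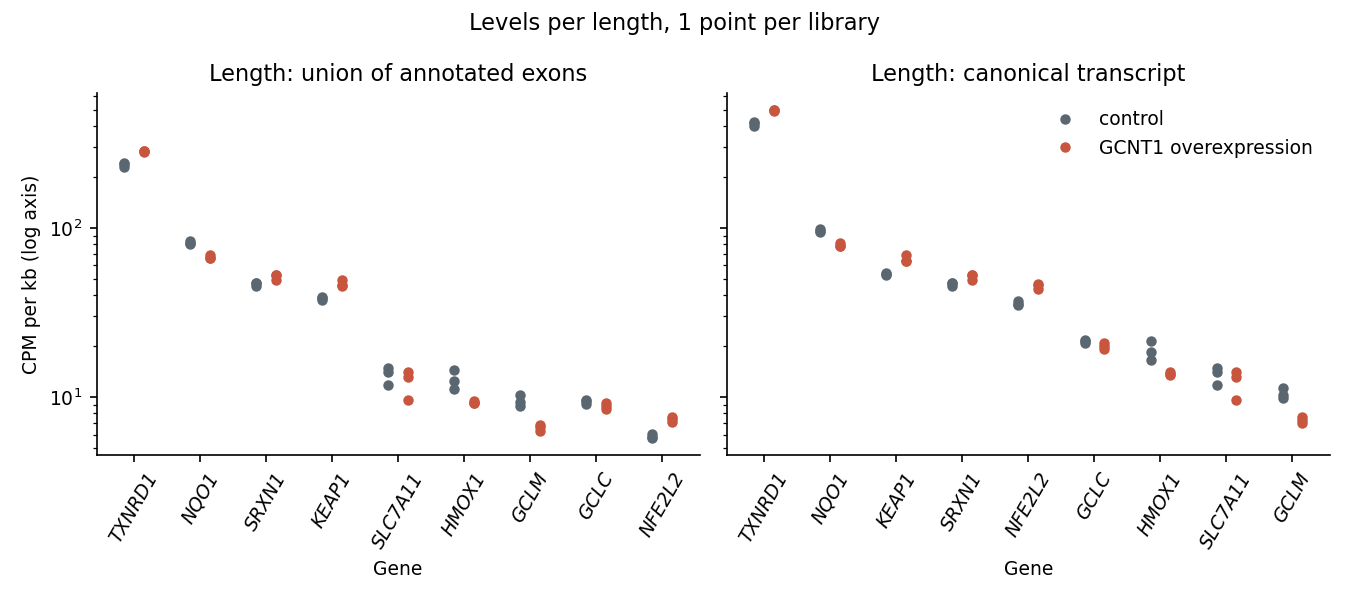
Level of each gene per length (vertical axis, CPM per kb, log scale), 1 point per library, grey for control and red for GCNT1 overexpression; the left panel divides by the union of annotated exons and the right by the canonical transcript. TXNRD1 lies above 200 CPM per kb in both panels and every other gene below 100.

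Around these 9 genes, 9 companion lists held 162 counted genes, each taken once. Of these, 22 passed both thresholds (13.6%), 11 of them higher and 11 lower, against 8.28% of all genes called higher and 11.1% called lower. Scaled by library size alone, 30 were called, 19 higher and 11 lower, and the calls over all genes turned as well, with 1283 up and 1230 down in place of 1052 up and 1405 down. By the adjusted p alone, 51 were higher and 52 lower, and 59 did not pass. Their median log2 fold change was 0.0046.

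Among 28 other NRF2 targets, 19 were counted and went both ways: 3 were called higher and 2 lower, and by the adjusted p alone 8 were higher and 3 lower. The genes called higher were ALDH3A1, which oxidizes aldehydes (45.8 ± 5.72 to 78.8 ± 6.90 CPM, log2 fold change 0.78), OSGIN1, a growth inhibitor induced by oxidative stress (25.4 ± 2.41 to 41.8 ± 4.23 CPM, 0.72), and TXN, thioredoxin (0.64). The genes called lower were ABCC3, an efflux pump for conjugated compounds (139 ± 5.35 to 73.1 ± 1.81 CPM, log2 fold change -0.92), and AKR1C3, an aldo-keto reductase that also makes androgens (37, 49 and 54 counts in controls and 11, 8 and 9 with overexpression, -2.40). AKR1C3 has near-identical paralogues, so its counts are uncertain. PRDX1, with the highest CPM of the list, fell by 0.20 on the log2 scale from 572 ± 15.6 CPM (adjusted p = 0.00342, edgeR).

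All 28 listed partners and regulators of NRF2 were counted, and 3 were called, all higher; by the adjusted p alone 12 were higher and 7 lower. BACH1, which competes with NRF2 for the same elements and represses them, rose from 25.9 ± 2.32 to 45.6 ± 5.45 CPM (log2 fold change 0.82, adjusted p = 8.92e-06, edgeR). RXRA, a nuclear receptor that can bind and restrain NRF2, rose by a log2 fold change of 0.63, where the 50 nearest genes had a median of 0.56. NFE2, a relative of NRF2 from blood cells, had 7, 11 and 4 counts in controls and 24, 33 and 18 with overexpression (log2 fold change 1.66).

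Of the small MAF partners, MAFK rose (log2 fold change 0.47, adjusted p = 0.000469, edgeR, with a local median of 0.42), MAFF fell (-0.21, adjusted p = 0.00840, edgeR, with a local median of -0.25) and MAFG was at 0.06 (adjusted p = 0.348, edgeR). NFE2L1, the NRF2 relative with the highest level in CPM, rose by 0.18 from 686 ± 5.57 CPM, and NFE2L3 fell by 0.21 on the log2 scale (adjusted p = 0.00196 and 0.0111, edgeR). The local median was 0.16 around NFE2L1 and 0.01 around NFE2L3. CUL3, the scaffold of the ligase that KEAP1 serves, was at -0.05 and SQSTM1, the autophagy receptor that sequesters KEAP1, at 0.05 (adjusted p = 0.396 and 0.377, edgeR).

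In the list for glutathione synthesis and use, 30 of 41 genes were counted, with 1 called higher and 2 lower, and 7 higher and 10 lower by the adjusted p alone. GSTO2, an omega-class transferase, had 27, 22 and 31 reads in controls and 77, 91 and 82 with overexpression (a log2 difference of 1.54). OPLAH, which returns oxoproline to glutamate in the glutathione cycle, fell from 27.3 ± 0.457 to 13.1 ± 0.916 CPM (-1.07), and GSTM2, a mu-class transferase whose reads can be shared with its paralogues, had a log2 fold change of -0.72. GLO1, which removes methylglyoxal with glutathione and had the highest level in CPM of the list, fell by 0.26 on the log2 scale. GSS, which makes the second step of glutathione synthesis, fell from 140 ± 6.36 to 101 ± 6.14 CPM (log2 fold change -0.47, adjusted p = 1.76e-05, edgeR), where the 50 nearest genes had a median of -0.27.

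Of 20 genes of the thioredoxin and peroxiredoxin system, 1 was called higher and 1 lower, and 5 were higher and 7 lower by the adjusted p alone. TXN, the substrate of TXNRD1, rose from 136 ± 10.6 to 212 ± 8.18 CPM (log2 fold change 0.64, adjusted p = 1.23e-06, edgeR), where the 50 nearest genes had a median of 0.35. TXNIP, which binds and inhibits thioredoxin, fell from 169 ± 7.59 to 87.3 ± 2.14 CPM (-0.95, adjusted p = 8.62e-09, edgeR). The ratio of TXNRD1 to TXN counts was 12.4, 12.4 and 10.4 in controls and 8.66, 9.28 and 9.18 with overexpression, without overlap (two-sided exact permutation p = 0.1, the smallest possible; 0.133 adjusted over the 4 ratios). The reductases TXNRD2 of mitochondria and TXNRD3 had log2 fold changes of 0.24 and 0.10 at 15.2 ± 1.66 and 6.88 ± 0.736 CPM in controls (adjusted p = 0.103 and 0.488, edgeR). PRDX6, the peroxiredoxin with the highest level in CPM, rose by 0.20.

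Of 20 counted heme and iron genes, 2 were called lower and 0 higher, where 11.1% and 8.28% of all genes were, with 10 lower and 5 higher by the adjusted p alone and a median log2 fold change of -0.13. FTH1, the ferritin heavy chain and itself an NRF2 target, fell from 7507 ± 388 to 4551 ± 113 CPM (log2 fold change -0.72, adjusted p = 2.33e-08, edgeR), although its processed pseudogenes make its counts uncertain. SLC40A1, the iron exporter ferroportin, fell from 9.51 ± 0.611 to 5.62 ± 0.649 CPM (-0.76). Genes that supply NADPH, the reductant used by TXNRD1 and NQO1, gave 2 called lower of 16, with 9 lower and 3 higher by the adjusted p alone. NADK2, the mitochondrial NAD kinase, had a log2 fold change of -0.72 where its neighbours had a median of -0.67, and MTHFD1, the highest in mean CPM over the 6 libraries, had -0.18.

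Of 9 genes that remove superoxide and peroxide, 1 was called, SOD3, the extracellular superoxide dismutase. It fell from 186 ± 17.2 to 35.2 ± 3.13 CPM (log2 fold change -2.40, adjusted p = 5.54e-11, edgeR). SOD1, the cytosolic enzyme and the highest of the list in CPM with overexpression, rose by 0.43, and by the adjusted p alone the list gave 3 higher and 4 lower.

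SLC7A11 is also a target of ATF4, the factor of the amino acid response. Of 13 genes of that response 3 were called higher and 1 lower, and by the adjusted p alone 9 were higher and 2 lower, with a median log2 fold change of 0.44. TRIB3, a pseudokinase, rose by 0.82, PSAT1, of serine synthesis, by 0.75 and SLC7A5, a transporter of large neutral amino acids, by 0.73, while DDIT4, an inhibitor of mTORC1, fell by 0.80 on the log2 scale. ATF4 itself was at 0.01 (adjusted p = 0.832, edgeR). Of 15 counted genes for lipid peroxide defence and ferroptosis, 1 was called, GCH1, of tetrahydrobiopterin synthesis, which rose by 0.75, while 10 passed neither threshold; ACSL3, the highest in CPM, was at -0.0036.

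**Figure D5:**
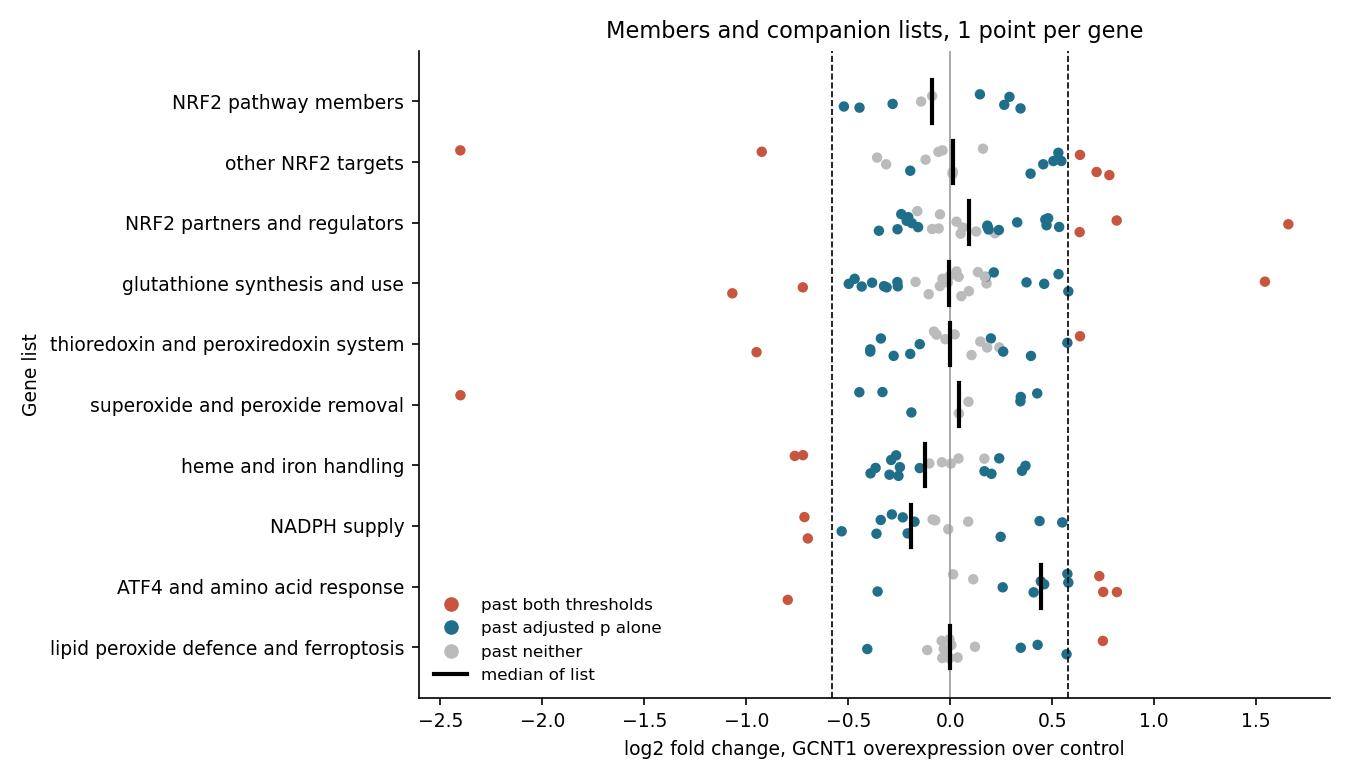
Log2 fold change of each gene (horizontal axis, GCNT1 overexpression over control) in the 9 NRF2 pathway genes and the 9 companion lists, 1 point per gene and list; red points passed both thresholds, blue the adjusted p alone and grey neither, and black bars are list medians. The 9 genes lie inside the dashed lines at 0.58 in each direction, and the list with the highest median is that of the amino acid response, at 0.44.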

How the data were processed

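RNA of 6 PC3 libraries, 3 control and 3 with GCNT1 overexpression, was prepared as stranded mRNA libraries. The authors used Cutadapt for trimming, HISAT2 for mapping to hg38 and featureCounts for counting, and deposited raw read counts per gene. The annotation, low-count filter and strand setting are not given in the sources used here. The lowest level of any gene in its third-highest library was 1.01 CPM. Depth was 11392213 to 13825704 counts.

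Counts were analysed with edgeR 4.0.16 in R 4.3.3. In it, filterByExpr removed 0 genes, libraries were scaled by TMM, and the quasi-likelihood test compared the groups, with p-values adjusted by Benjamini-Hochberg across all 12703 genes. Every adjusted p comes from this test unless named otherwise. CPM are TMM-normalized. Standard errors were taken from the fitted log2 fold change and its F statistic. Ratios were tested with exact permutation tests (scipy 1.17.1). Symbols and positions came from RefSeq GRCh38.p14, with 12648 genes matched, and exon lengths and overlaps from GENCODE 44. Local medians used 25 genes on each side.

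The 9 genes and all lists were chosen with earlier results of these data known. Companion genes were named by a rule: up to 3 called each way per list by size of change without group overlap, the highest in CPM, and direct partners or paralogues of the 9. GSS and ATF4 were named after their values were seen. Marker genes are given as a check of the cells. Part of what the rule and the lists give is left out of the text. Alternatives were limma-voom (limma 3.58.1), DESeq2 1.42.0, scaling by RLE or by library size only, omission of the filter, at least 10 counts in every library, a replicate block, and each library left out. Tests were run on simulated data first. P-values and the intervals given for fold changes measure the spread between these libraries only.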

Additional observations from a re-analysis of the deposited data

How the results depend on the processing

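The 7 changes kept their direction in all 13 alternative fits, and 6 of them kept an adjusted p under 0.05 throughout; SRXN1 did not, with Benjamini-Hochberg adjusted p between 0.00440 and 0.119 over the edgeR, DESeq2 and limma-voom fits. Of the 13, the fit that omitted the filter could not differ from the main fit, since the filter removed 0 genes. DESeq2 gave SRXN1 0.14 (adjusted p = 0.0550). With each library left out in turn, 6 or 7 of the 9 genes passed the adjusted p alone, 0 of the 9 passed both thresholds, 23 to 27 companion genes and 2409 to 2511 of all genes were called. The log2 fold change of SLC7A11 then ran from -0.24 to 0.0026, the only change of sign, without GCNT1 overexpression replicate 1.

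Without the minimum fold change, 7 of the 9 genes, 103 companion genes and 7314 of all genes passed. With the replicate number as a block 0 of the 9 genes, 22 companion genes and 2423 of all genes were called; 6 of the 9 passed the adjusted p alone, and SRXN1 had 0.15 (adjusted p = 0.0881, edgeR). Same-numbered libraries had correlations of deviations from -0.27 to -0.0024, so the libraries share only a number, and no library correlated best with its own number. Library size alone raised the median log2 fold change of all genes by 0.06. Over the alternatives HMOX1 ranged from -0.52 to -0.34 and GCLM from -0.57 to -0.45. Levels per kb moved with the length used for 7 of the 9 genes. SRXN1 and SLC7A11 have the same length by either measure, so their levels could not move.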
